A study of Mus musculus with 2 samples.

Results

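The miR-15/16 family was examined here through 6 microRNA (miRNA) genes of the mouse: Mir15a, Mir16-1, Mir15b, Mir16-2, Mir195a and Mir497. They were chosen by name out of 1973 annotated miRNA genes, and all 6 were measured. Mir497 has no row of its own in the tables and was read from the counts on the strand opposite Mir497b, the gene that overlaps it. The libraries were made from whole bladder of newborn mice of the strain B6NCrl at postnatal day 0, 1 bladder per pup, from RNA of under 30 nucleotides. There were 2 pups in 1 group, both assigned to pregnancy 1 by the labels, untreated as far as the labels say, with sex not collected. They are called pup 1 and pup 2 after the labels. With 1 group, the data describe the level of each gene and the spread between the pups, and no condition was compared.

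MicroRNAs are short RNAs that are cut from hairpin precursors and guide the repression of messenger RNAs, mostly through pairing of the seed, which is the stretch from base 2 to base 8. Genes of the miR-15/16 family share a seed and so share many predicted targets, among them regulators of the cell cycle and of cell survival such as Ccnd1, Ccne1 and Bcl2. The genes lie in pairs, each thought to be made from a common primary transcript. The family is known for restraining proliferation: Dleu2, the host of Mir15a and Mir16-1, is named after a region deleted in leukaemia, and Mir195a has been linked to the end of cardiomyocyte division after birth.

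The mature miRNAs of the 5p arm are shown because the shared seed defines the family. The sequences are from RefSeq on GRCm38.p6, where all 6 genes matched, and capitals mark the seed.
miR-15a-5p: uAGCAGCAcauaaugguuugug
miR-15b-5p: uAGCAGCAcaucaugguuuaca
miR-16-5p: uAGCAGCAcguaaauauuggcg
miR-195a-5p: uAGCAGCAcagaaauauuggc
miR-497a-5p: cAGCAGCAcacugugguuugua
All 5 carry the seed AGCAGCA. Beyond it they fall apart to different degrees. Compared base by base from the 5′ end without gaps, miR-16-5p and miR-195a-5p differed at 2 of 21 positions. In the same comparison miR-15a-5p and miR-15b-5p differed at 4 of 22 positions, and miR-16-5p and miR-497a-5p at 11 of 22.

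Mir16-1 and Mir16-2 give the same miR-16-5p, which matters for every value of theirs below. Their hairpins are shown for that reason, with the 22 bases of miR-16-5p in capitals.
Mir16-1: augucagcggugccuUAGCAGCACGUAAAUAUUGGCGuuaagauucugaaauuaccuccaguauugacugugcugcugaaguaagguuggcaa
Mir16-2: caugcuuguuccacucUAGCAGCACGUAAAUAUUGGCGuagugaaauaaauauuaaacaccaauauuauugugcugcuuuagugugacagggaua
The hairpins agree for 1 base after miR-16-5p and for 0 bases before it. The 3p arms, miR-16-1-3p and miR-16-2-3p, differ at 10 of 22 positions. A read that covers miR-16-5p alone therefore maps to both genes. The tables list reads mapped to several places in a total of their own, at 22.7% of reads in pup 1 and 24.8% in pup 2, so the counts at both Mir16 genes leave out an unknown number of miR-16-5p reads. The counts do not separate the 5p from the 3p arm. The longest run that a mature miRNA of Mir15a, Mir15b, Mir195a or Mir497 shared with another hairpin of the RefSeq table was 16 of 21 bases, between miR-195a-5p and Mir195b. The hairpin of Mir15a was not used here; miR-15a-5p and miR-15b-5p share their first 11 bases.

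The pairs lie on 3 chromosomes of GRCm38, the assembly that mm10 names, by GENCODE M21. On the minus strand of chromosome 14, Mir15a (ENSMUSG00000093007.1) spans 61632027 to 61632110, within an intron of Dleu2, which encodes no protein. Mir16-1 (ENSMUSG00000092995.1) follows it after 54 bases, at 61631880 to 61631972, and overlaps an exon of a Dleu2 transcript. On the plus strand of chromosome 3, Mir15b spans 69009772 to 69009835 and Mir16-2 spans 69009902 to 69009996, with 66 bases between them. Both lie in introns of Smc4, which encodes a subunit of the condensin complex that packs chromosomes for division. On the plus strand of chromosome 11, Mir497 spans 70234717 to 70234800 and Mir195a spans 70235042 to 70235135, with 241 bases between them and no other host gene in that annotation. No further annotated miRNA gene lay within 10 kb of a member, apart from Mir497b.

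**Figure D1:**
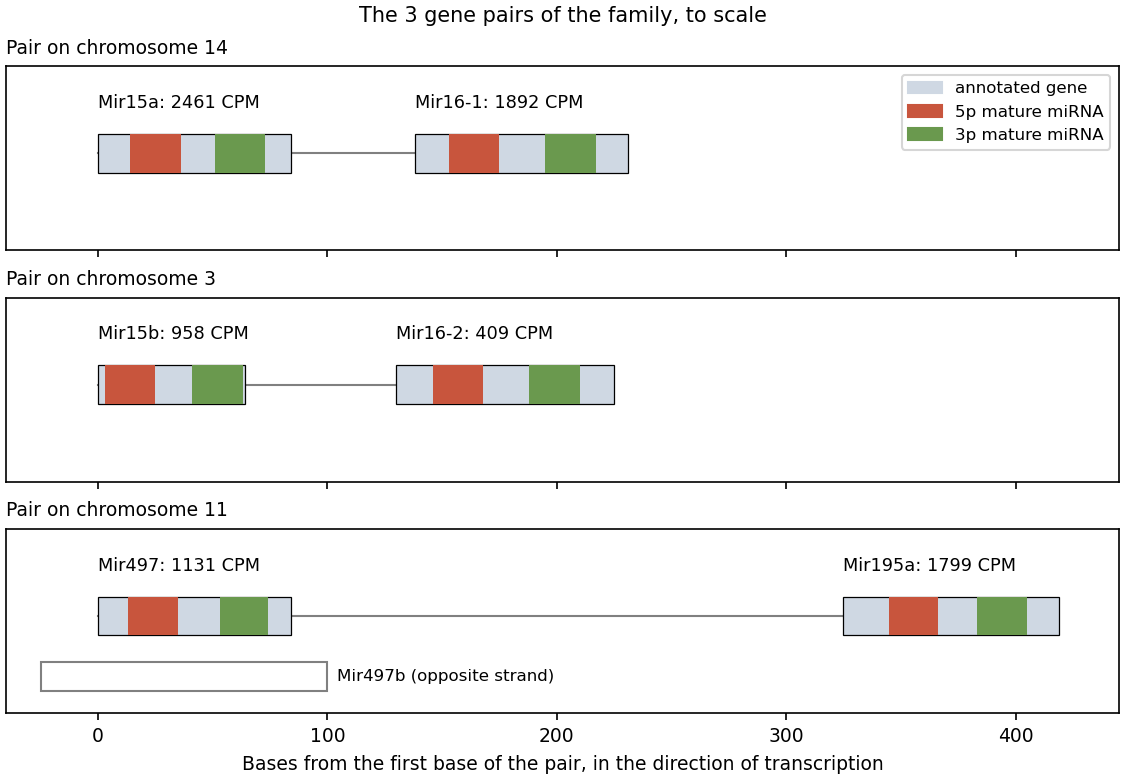
The 3 gene pairs to scale, with the annotated genes, the 5p and 3p mature miRNAs and the mean level of each gene in CPM, counts per 1000000 sense-strand gene counts; the axis gives bases from the start of the pair in the direction of transcription. The pairs on chromosomes 14 and 3 are compact (54 and 66 bases between the genes), the pair on chromosome 11 is wider (241 bases), and Mir497b covers Mir497 on the other strand.

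Mir497b shows why the strand had to be chosen. It spans 70234692 to 70234816 on the minus strand of chromosome 11. Its own strand had 0 counts in pup 1 and 2 counts in pup 2. The opposite strand, where Mir497 lies, had 8412 counts in pup 1 and 4128 in pup 2. The annotated miR-497b overlaps miR-497a-3p by 17 bases on the other strand and miR-497a-5p by 0 bases. At the other 5 members the opposite strand had 0 counts in both pups.

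Pup 1 had 7460621 sense-strand gene counts and pup 2 had 3636650, so values of pup 1 carry the smaller counting error. Levels are in CPM, that is, counts per 1000000 sense-strand gene counts. A gene without counts may still have up to 0.402 CPM in pup 1 or 0.825 CPM in pup 2 (3 counts). These limits and all intervals speak of counting error alone, because molecules were not tagged with identifiers. Markers of the labelled tissue were present: the smooth muscle genes Mir143 and Mir145a summed to 53.7% ± 0.21 (SD, n = 2) of counts, and the 6 urothelial genes to 13307 ± 183.0 CPM. In whole tissue, fewer cells of a type and less RNA per cell cannot be told apart.

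The counts of the 6 members together equalled 0.804% of the sense-strand gene counts in pup 1 and 0.926% in pup 2. The mean was 0.865% ± 0.086 (SD, n = 2). Their sum was 8039.8 CPM for pup 1 and 9261 CPM for pup 2. The counts of Mir497 are in these sums but not in the total, which leaves out opposite-strand counts. Each member passed the minimum of 10 counts summed over the pups, and the lowest count at a member was 1659. By mean CPM over all genes they ranked between 37 and 100. In this ranking every gene but Mir497 was read on the sense strand and without multiply mapped reads, so other genes may stand too low.

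Mir15a had the highest counted level of the members. The order of Mir15a and the Mir16 genes is uncertain, since reads of miR-16-5p are missing from the latter. Mir15a had 2240.3 CPM in pup 1 (exact 95% Poisson interval 2206 to 2275) and 2681 CPM in pup 2 (2628 to 2735), a mean of 2461 ± 311.5 (SD, n = 2) at rank 37. Its value in pup 2 was the highest of any member in either pup.

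Mir16-1, its neighbour, had 1604 CPM in pup 1 (1576 to 1633) and 2180.0 CPM in pup 2 (2132 to 2229), a mean of 1892 ± 407.0 at rank 47. This was the widest spread between the pups among the members. Of the counts at the Mir16 genes, Mir16-1 held 81.6% in pup 1 and 82.7% in pup 2.

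Mir195a had 1782 CPM in pup 1 (1752 to 1813) and 1815 CPM in pup 2 (1772 to 1860), a mean of 1799 ± 23.5 at rank 48. Mir497, in the same pair, had 1128 CPM in pup 1 (1104 to 1152) and 1135 CPM in pup 2 (1101 to 1170.3), a mean of 1131 ± 5.37 at rank 64. The Poisson intervals of the pups overlapped for both genes of this pair and for no other member.

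Mir15b had 923.5 CPM in pup 1 (901.8 to 945.6) and 993.2 CPM in pup 2 (961.1 to 1026), a mean of 958.4 ± 49.3 at rank 71. Mir16-2 had 361.9 CPM in pup 1 (348.4 to 375.8) and 456.2 CPM in pup 2 (434.5 to 478.7), a mean of 409.0 ± 66.7 at rank 100. The pair in Smc4 therefore held the lowest pair of counted levels, with Mir16-2 placed too low by an unknown amount.

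In order of mean counted CPM, with the Mir16 genes placed too low by an unknown amount, the members ran Mir15a, Mir16-1, Mir195a, Mir497, Mir15b and Mir16-2. Mir16-1 and Mir195a did not differ beyond their spread: Mir16-1 minus Mir195a was -177.7 CPM in pup 1 and 364.6 CPM in pup 2. For the other neighbours in this order the lowest value of the upper gene exceeded the highest value of the lower gene. The closest of these was Mir15a over Mir16-1, at 2240.3 CPM against 2180.0 CPM across different pups. Reads of miRNAs span the mature RNA, here 21 or 22 nucleotides for each member, so counts were not scaled by gene length. How closely counts follow molecules from one sequence to another was not measured, so this is an order of counts. Per 100 bases of the annotated gene, Mir15b (1497 CPM per 100 bases) would stand above Mir497 (1347), because the annotated Mir15b is only 64 bases long, and the other places are the same.

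**Figure D2:**
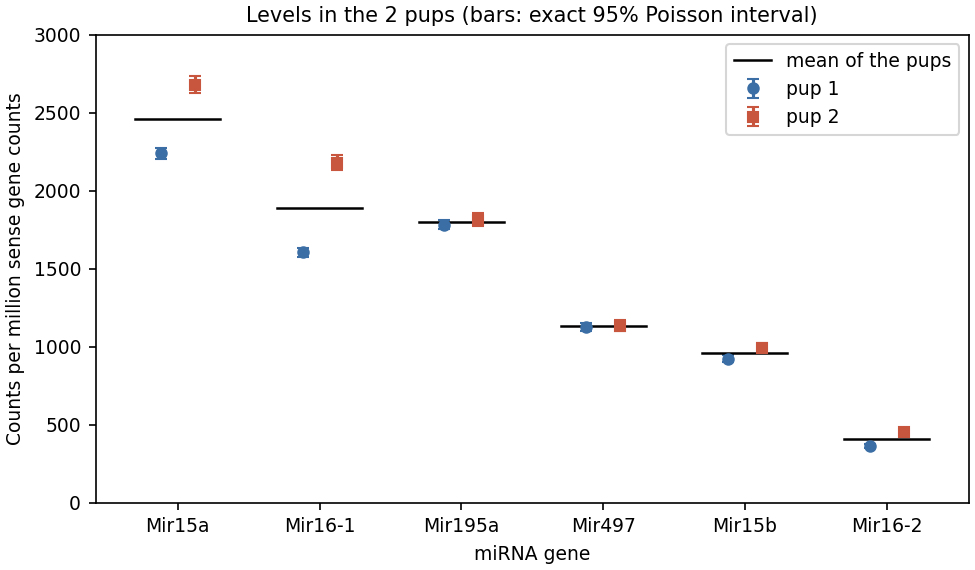
Level of each member in CPM by pup, with exact 95% Poisson intervals and the mean of the 2 pups as a line. Mir15a and Mir16-1 lie apart between the pups (2240.3 and 2681 CPM, 1604 and 2180.0 CPM), while the points of Mir195a and Mir497 lie side by side.

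By pair, the genes in Dleu2 summed to 4353 ± 718.5 CPM (SD, n = 2), the genes on chromosome 11 to 2930.1 ± 28.9 CPM and the genes in Smc4 to 1367 ± 116.0 CPM. The pair on chromosome 14 held 47.8% of the members' counts in pup 1 and 52.5% in pup 2. The pair on chromosome 11 held 36.2% and 31.9%, and the pair on chromosome 3 held 15.99% and 15.7%. The order of the pairs was the same in both pups.

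The ratio of neighbours differed from pair to pair. Mir15a had 1.40 times the counts of Mir16-1 in pup 1 (exact 95% binomial interval 1.36 to 1.43) and 1.23 times in pup 2 (1.19 to 1.27), a mean of 1.31 ± 0.12 (SD, n = 2). Mir15b had 2.55 times the counts of Mir16-2 in pup 1 (2.44 to 2.67) and 2.18 times in pup 2 (2.05 to 2.31), a mean of 2.36 ± 0.26. In both pairs the Mir15 gene was above its Mir16 neighbour in both pups. Reads of miR-16-5p that map to both Mir16 genes are missing from the denominators, so both ratios are upper values, too high by an unknown amount. Mir497 had 0.633 times the counts of Mir195a in pup 1 (0.616 to 0.650) and 0.625 times in pup 2 (0.601 to 0.650), a mean of 0.629 ± 0.0052, and its intervals overlapped between the pups.

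Between the pairs, Mir15a had 2.43 times the counts of Mir15b in pup 1 and 2.70 times in pup 2, a mean of 2.56 ± 0.19 (SD, n = 2). Mir16-1 had 4.43 times the counts of Mir16-2 in pup 1 and 4.78 times in pup 2, a mean of 4.61 ± 0.24. Both comparisons put the copies in Dleu2 above those in Smc4. For the Mir16 genes the ratio compares only reads that tell the copies apart.

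**Figure D3:**
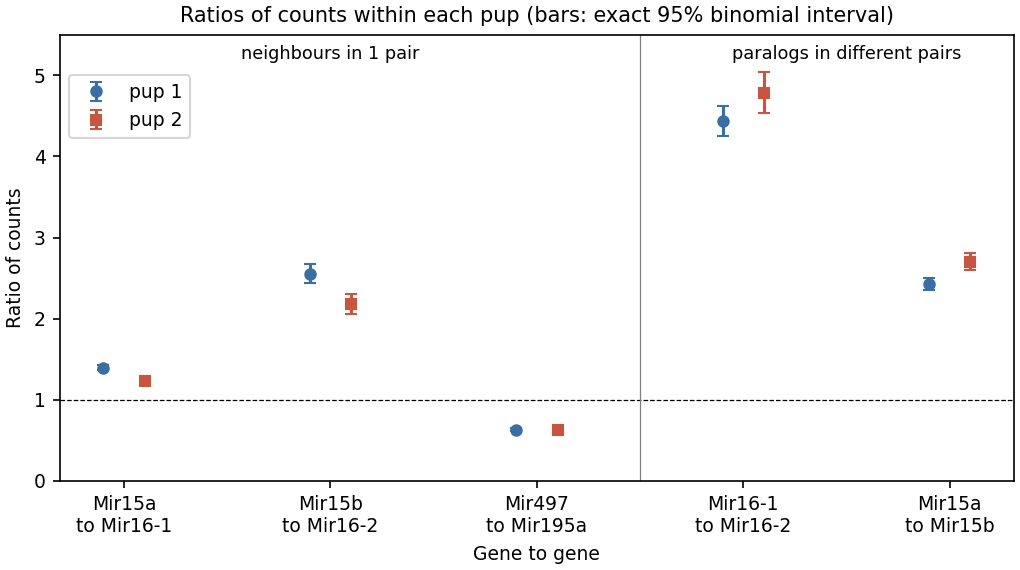
Ratio of counts between genes within each pup, for neighbours of 1 pair (left) and paralogs of different pairs (right), with exact 95% binomial intervals; the dashed line marks equal counts. The ratio of Mir497 to Mir195a is alike in the pups (0.633 and 0.625), and the ratios of Mir15 to Mir16 neighbours are lower in pup 2 (1.40 and 1.23, 2.55 and 2.18).

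The pups were then compared gene by gene. This compares the 2 libraries with read counting noise and not a condition, and 1 library on each side gives no replicate check. Ratios are pup 2 over pup 1 after TMM scaling. Mir16-1 was higher in pup 2 with a log2 ratio of 0.47 (counting SE 0.021), or 1.38-fold. Mir16-2 was higher by 0.36 (SE 0.045), Mir15a by 0.28 (SE 0.018) and Mir15b by 0.13 (SE 0.030). The log2 ratios of Mir195a and Mir497 were 0.05 (SE 0.022) and 0.03 (SE 0.027).

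By a two-sided exact conditional binomial test with Benjamini-Hochberg adjustment over 363 genes, 4 of the 6 members passed the threshold of 0.05, all higher in pup 2. The adjusted p was 1.4e-105 for Mir16-1, 6.7e-51 for Mir15a, 3.7e-14 for Mir16-2 and 8.9e-05 for Mir15b in this exact test. It was 0.063 for Mir195a and 0.40 for Mir497. Of all 363 genes tested, 32.2% passed in either direction, 19.0% as higher in pup 2 and 13.2% as higher in pup 1. Passing depends on depth, and among the 162 genes with at least 1000 counts, a minimum chosen after seeing the data that every member meets, 61.7% passed and 34.0% did as higher in pup 2. With that minimum 5 of the 6 members passed, Mir195a being the fifth, again higher in pup 2. In both fits, under TMM scaling, the members' share lay above the share of all genes higher in pup 2, by a test that knows counting noise alone. The members lie in pairs of neighbours, so they are not independent of each other. The median log2 ratio was 0.21 over the members and 0.03 over all 363 genes, and all 6 ratios were above 0.

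Small ratios changed sign with the scaling. Over all genes TMM called 69 higher in pup 2 and 48 higher in pup 1, DESeq2 size factors 56 and 69, total counts 59 and 64, and TMM factors from all rows, an alternative chosen after seeing the data, 49 and 73. With TMM factors from all rows Mir195a and Mir497 had log2 ratios of -0.012 and -0.028, and Mir15b, at 0.07, did not pass (adjusted p of the exact binomial test 0.070). Mir16-1, Mir16-2 and Mir15a passed as higher in pup 2 under each of these scalings. edgeR put the spread beyond counting at a coefficient of variation of 13.1%, estimated from these same 2 libraries taken as 1 group. The difference between the pups is thus part of the noise that it is tested against. Failing this test therefore does not show that a gene was alike in the pups. In edgeR's exact test 0 of the 6 members passed. The adjusted p was 1 for each, the lowest unadjusted p was 0.085, for Mir16-1, and 1.38% of all 363 genes passed.

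**Figure D4:**
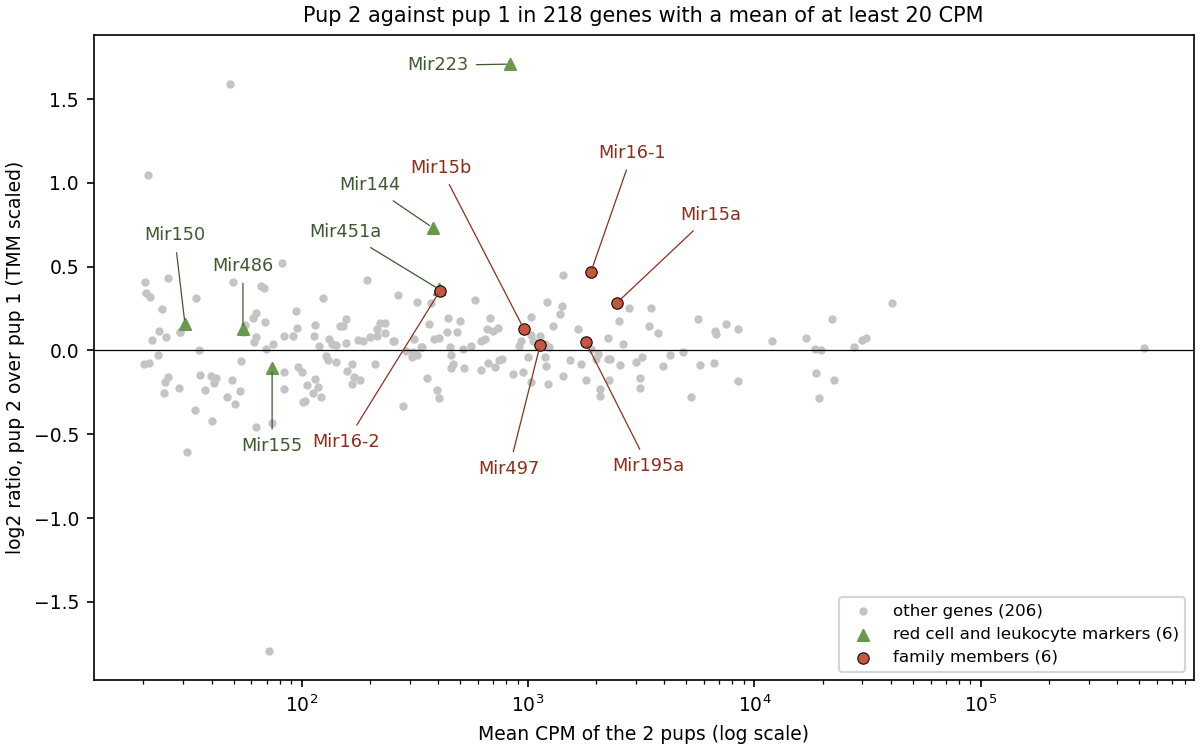
Log2 ratio of pup 2 over pup 1 against mean CPM (log scale) for the 218 genes with a mean of at least 20 CPM, with the 6 members and 6 red cell and leukocyte markers named. Mir16-1 (0.47), Mir16-2 (0.36) and Mir15a (0.28) lie above 0, Mir195a (0.05) and Mir497 (0.03) lie near it, and Mir16-2 coincides with Mir451a.

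Within each Mir15 and Mir16 pair, the Mir16 gene differed more between the pups than its Mir15 neighbour. The ratio of Mir15a to Mir16-1 was lower in pup 2 by a log2 change of -0.18 (counting SE 0.028), and that of Mir15b to Mir16-2 by -0.23 (SE 0.054). These changes do not depend on the scaling, since both genes come from 1 library. The change was -0.02 (SE 0.035) for Mir497 to Mir195a. The share of reads mapped to several places was also higher in pup 2 (24.8% against 22.7%), and its part in the result was not tested.

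The 6 measured markers of blood cells differed between the pups to different degrees. The red cell genes Mir144, Mir451a and Mir486 together had 698.5 CPM in pup 1 against 980.3 in pup 2. Mir144 had a log2 ratio of 0.73, Mir451a of 0.36 and Mir486 of 0.13. In edgeR's exact test none of these 3 passed, with adjusted p values of 0.35 for Mir144 and 1 for the others. The leukocyte genes Mir223, Mir150 and Mir155 together had 502.6 CPM in pup 1 against 1377 in pup 2, nearly all through Mir223, with a log2 ratio of 1.71 and an adjusted p of 2.9e-07 in edgeR's exact test. Mir150 and Mir155, at 0.16 and -0.11, did not pass. None of the 6 markers was at 0. The part of blood cells in the ratios of the family was not tested. Sums of smooth muscle, urothelial and endothelial markers had log2 ratios of 0.015, -0.0046 and 0.0039. Within the urothelial sum the genes went both ways, from -0.18 for Mir200c to 0.14 for Mir205. Markers of other tissues went both ways: the liver miRNA Mir122 had a log2 ratio of -1.79, and the striated muscle genes summed to -0.31. Of the latter, Mir206 was at -0.65, Mir208b at -0.46 and Mir499, with 27 counts in pup 1 and 37 in pup 2, at 1.51. Their part in the ratios of the family was not tested either.

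Further measured genes share the seed without counts: Mir195b, Mir6342, Mir6353 and Mir6419 had 0 counts in both pups, under the limits given above. The remaining measured gene with the seed is Mir322, on chromosome X. Compared without gaps, miR-322-5p differed from miR-15b-5p at 6 of 22 positions and from miR-16-5p at 10 of 22. Its sequence is printed to show that it shares the seed of the members and differs from all of them at the next base.
miR-322-5p: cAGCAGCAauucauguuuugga
miR-503-5p: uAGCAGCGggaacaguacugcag
Mir322 had 27543 CPM in pup 1 and 27459 CPM in pup 2. This was 3.43 times the sum of all 6 members in pup 1 and 2.97 times in pup 2, a mean of 3.20 ± 0.33 (SD, n = 2). The members thus held 23.9% ± 1.86 of the counts at genes with the seed AGCAGCA. This share is a lower value, and the ratios of Mir322 to the sum are upper values, because miR-16-5p reads are missing. The log2 ratio of Mir322 was 0.02. Those of the members ran from 0.03 for Mir497 and 0.05 for Mir195a to 0.47 for Mir16-1. Mir503, its neighbour, has the seed AGCAGCG and stood at 861.3 ± 69.0 CPM, between Mir15b and Mir16-2.

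The gene closest to each member was sought by Euclidean distance in log2(CPM + 1) over the 2 pups, among 363 genes. With 2 values per gene this measures mean level and ratio alone. Mir16-2 lay closest to Mir451a, a red cell miRNA, with 357.1 CPM in pup 1 against 452.3 in pup 2 (distance 0.023). Mir497 lay closest to Mir324 (0.039), Mir15b to Mir361 (0.082), Mir15a to Mir100 (0.10) and Mir195a to Mir101b (0.12). Mir16-1 had no gene nearer than Mir195a, at a distance of 0.30.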

How the data were processed

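Small RNA libraries of 2 newborn bladders were analysed from 1 table per library. The authors deposited raw counts of reads per miRNA gene, 1 library at a time, aligned to mm10 with GENCODE M4 per the labels and the deposited README text. Aligner, counter and read filters were not given in the sources used here. Columns are unlabelled. The first count column equals the sum of the others, and the second holds nearly all counts, so they were read as both strands, sense and opposite strand.

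The first 4 lines (unmapped reads, 8.19% of reads in pup 1 and 7.32% in pup 2, multiply mapped reads, 22.7% and 24.8%, reads outside genes, 3.22% and 3.07%, and ambiguous reads, 0) stayed out of totals and tests. Of 1973 gene IDs, 1894 matched GENCODE M21 by Ensembl number. The counts opposite Mir497b entered as 1 added row. The pups differed beyond sampling noise (chi-square 48.3 times its 361 degrees of freedom) and were kept as 2 samples.

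TMM factors (edgeR 4.0.16, R 4.3.3) came from genes with at least 10 counts summed. Ratios used a prior count of 0.5. The exact binomial test was first run on simulated data with counting noise alone, which lack the further spread seen between these pups. edgeR's exact test used the common dispersion of an intercept-only model of the same 2 libraries. Python 3.11.15 with scipy 1.17.1 did the rest. Named genes were the 6 members, genes sharing their seed, miRNA genes within 10 kb, the gene nearest each member in level, and cell type markers. Mir503, the neighbour of Mir322, was named after its values were seen. Lists fixed for other tissues gave 71.7 ± 56.7 CPM (SD, n = 2) for liver (Mir122), 78.8 ± 13.1 for striated muscle, 104.4 ± 1.69 for neurons and glia and 19780.1 ± 190.3 for endothelium (Mir126a). Mir142 has no row of its own. The members and lists were chosen with earlier results of these data known. The alternatives were total count and DESeq2 1.42.0 scaling, other count minimums, unstranded counts, other totals, a prior count of 2 and each pup left out.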

Additional observations from a re-analysis of the deposited data

How the results depend on the processing

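The summed level of the members, 8650.3 CPM, was 18199.6 with Mir143 left out of the totals, 5650.1 with all reads as the denominator, 7519 with Mir497b read on its own strand and 6349 without Mir16-1 and Mir16-2. It was 8039.8 to 9261 with either pup left out. The log2 ratio of the sum, 0.23, was 0.20 with total count scaling, 0.19 with DESeq2 size factors and 0.17 with TMM factors from all rows. That last setting turned Mir195a to -0.012 and Mir497 to -0.028. The number of members that differed between the pups was 4, 5 with minimums of 100 or 1000 counts, 3 with TMM factors from all rows, and 0 in edgeR's exact test, where 0 of the members had an unadjusted p under 0.05. The share of all genes that differed depended on them too, so the number of members is no result about the members alone. Leaving out a pup gave no value for ratios between the pups, and with 2 pups it says nothing about the stability of the other values. No paired analysis was possible because both libraries belong to 1 group. Depth was at least 1659 counts at each member. The spread between the pups exceeded the counting intervals of Mir15a, Mir16-1, Mir15b and Mir16-2 but not of Mir195a and Mir497, and multiply mapped reads limit both Mir16 genes.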
